A study of Mus musculus with 2 samples.

Results

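The genes described are the mouse Zfp genes numbered 600 to 999, zinc finger genes whose RefSeq symbol is Zfp followed by such a number and nothing else. Autosomal, protein-coding genes were taken by symbol alone, with no measured value in the rule, and 170 of 20558 autosomal protein-coding genes met it. The set itself was chosen with earlier results of these data known. They lay on 19 chromosomes, were 2.52 to 479 kb long with a median of 18.2 kb, and numbered 36 on chromosome 7, 22 on chromosome 17, 17 on chromosome 4 and 16 on chromosome 8. The rule left out 3 genes with such symbols, the X-linked Zfp711, the pseudogene Zfp683 and the noncoding Zfp783.

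Most numbered Zfp genes code for proteins with arrays of C2H2 zinc fingers, which bind DNA. Many also carry a KRAB domain, which recruits the corepressor TRIM28 and through it the H3K9 methyltransferase SETDB1, and these proteins are known for silencing retrotransposons. They typically sit in clusters of related copies, and in such genes the fingers are usually encoded by the last exon, at the 3′ end, which in several cell types is known to carry the trimethyl form of the H3K9 mark. H3K9me2, the dimethyl form measured here, is laid down mainly by EHMT1 and EHMT2 and is typical of silent chromatin.

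The mark was mapped by CUT&Tag, a method that tags chromatin bound by an antibody with a transposase, in activated B cells of C57BL/6 mice. There was 1 library of wild-type cells (WT) and 1 of cells labelled jmjd1c B KO, a B cell knockout of the jumonji-domain gene Jmjd1c (KO). The agent that activated the cells, the Cre driver, the age and the number of mice are not given in the sources used here. The peak lists rested on 33474010 tags in WT and 34502392 in KO, and held 29528 and 30144 autosomal peaks. With 1 library per genotype there was no replicate spread, and no test was made. Intervals are exact 95% intervals, Clopper-Pearson for shares and Poisson for counts, cover counting error only, and treat neighbouring genes as independent, which copies within a cluster are not. For a count of 0 the upper limit given in the text is the share that 3 counts would make. The libraries are bulk samples, so a mark in few cells and a weak mark in many cannot be told apart. Where no peak is listed, signal below the authors' threshold remains possible.

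The authors' caller worked with a fragment length of 292 bp in WT and 189 bp in KO, so pileup, width and fold enrichment are not on a common scale. The 7 B cell markers examined, among them Pax5, had no peak in either library. Of 6 T cell and 4 myeloid markers, 1 in each list had a peak, Bcl11b and Adgre1. Against the 11.4% of all coding genes with a peak in either library, these lists are too short to read, since 0 of 7 allows a share of up to 42.9%. Peak lists of a silencing mark do not measure which genes a cell uses.

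Few of these zinc finger genes held an H3K9me2 peak in either genotype. In windows of the gene body with 2 kb on each side, 7 of 170 genes held a WT peak (4.12%, 1.67 to 8.30%), against 9.45% of all autosomal protein-coding genes. A KO peak was held by 8 genes (4.71%, 2.05 to 9.06%), against 9.67%. The interval lay below the background share in both libraries with these windows. With flanks of 10 kb it did not in WT (9.41%, 5.48 to 14.8%, against 12.5%), and in KO it ended just below the background (7.65%, 4.13 to 12.7%, against 12.8%). With peaks of q 1e-05 or lower the KO background lay inside the interval (0.588%, 0.0149 to 3.23%, against 2.44%). Peaks of both libraries were held by 4 genes, Zfp993, Zfp982, Zfp618 and Zfp654 (2.35%, against a background of 7.68%). A WT peak only was held by 3 genes, Zfp978, Zfp985 and Zfp735 (1.76%, against 1.77%), and a KO peak only by 4 genes, Zfp937, Zfp970, Zfp984 and Zfp820 (2.35%, against 1.98%). The shares with a peak in a single library were thus near the background, and the lower share was that with peaks in both. This comparison does not allow for window length. At windows of 60 kb and over the share with both was 21.1% (6.05 to 45.6%), against 23.6% of coding genes. At 15 to 30 kb it was 0 of 84, which allows up to 3.57%, against 2.47%. In the other length classes the background for both also lay inside the interval. The other 159 genes had no peak in either list.

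**Figure D1:**
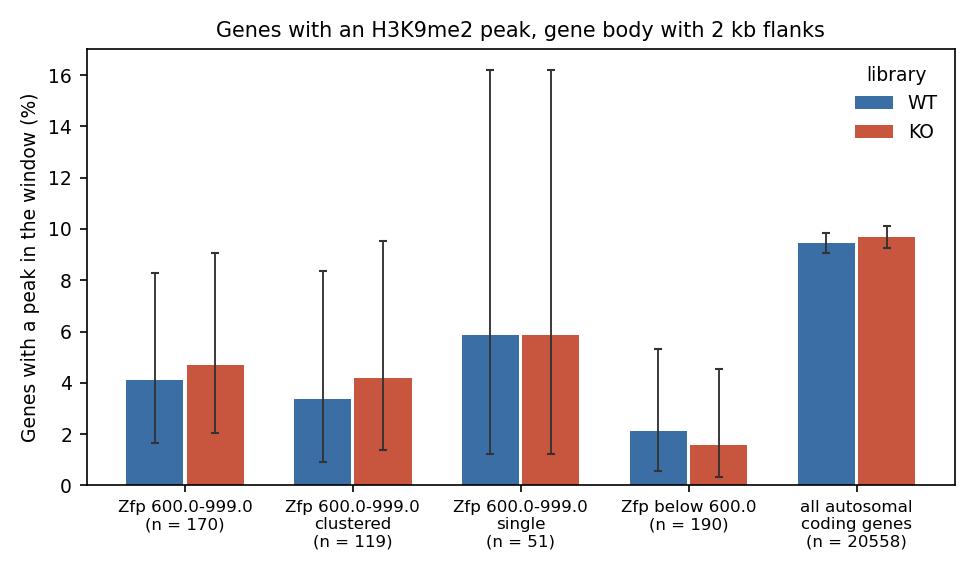
Share of genes (y axis, percent, starting at 0) with a peak in the window (gene body plus 2 kb on each side), by gene group (x axis, with the number of genes) and library (blue WT, red KO); error bars are exact 95% binomial intervals. The bars of the 170 Zfp genes numbered 600 to 999 stand at 4.12% and 4.71%, against 9.45% and 9.67% for all autosomal coding genes.

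Over 5.91 Mb of merged windows there were 11 peaks in each library, a density of 1.86 per Mb (0.929 to 3.33). All autosomal coding windows held 8.71 per Mb in WT and 8.90 in KO. The WT peaks covered 0.0907% of the zinc finger windows, against 0.493% of all coding windows, and the KO peaks 0.116%, against 0.404%.

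Long genes carried most of the peaks. The median window was 22.2 kb for the zinc finger genes and 21.6 kb for all coding genes, but only 19 zinc finger genes had a window of 60 kb or more. Of these 19, 6 had a peak in either library (31.6%, 12.6 to 56.6%), against 27.7% of coding genes of that length. In windows of 30 to 60 kb the shares were 3 of 35 (8.57%, 1.80 to 23.1%) against 7.93%. In windows of 15 to 30 kb they were 2 of 84 (2.38%, 0.290 to 8.34%) against 5.20%. None of the 32 genes with a window under 15 kb had a peak, which allows a share of up to 9.38%, against 8.03% of coding genes. In each length class the background share lay inside the interval of the zinc finger genes. Even so, per Mb the 19 longest held 3.03 WT peaks (1.31 to 5.97), against 10.7 over all coding windows of 60 kb and over. That class has no upper length and held 7947 of the 9110 WT peaks in coding windows. In the shorter classes the WT interval per Mb held the background. It was 0 to 9.94 against 7.82 under 15 kb and 0.0144 to 3.16 against 2.59 at 15 to 30 kb. At 30 to 60 kb it was 0.191 to 5.71 against 2.97.

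**Figure D2:**
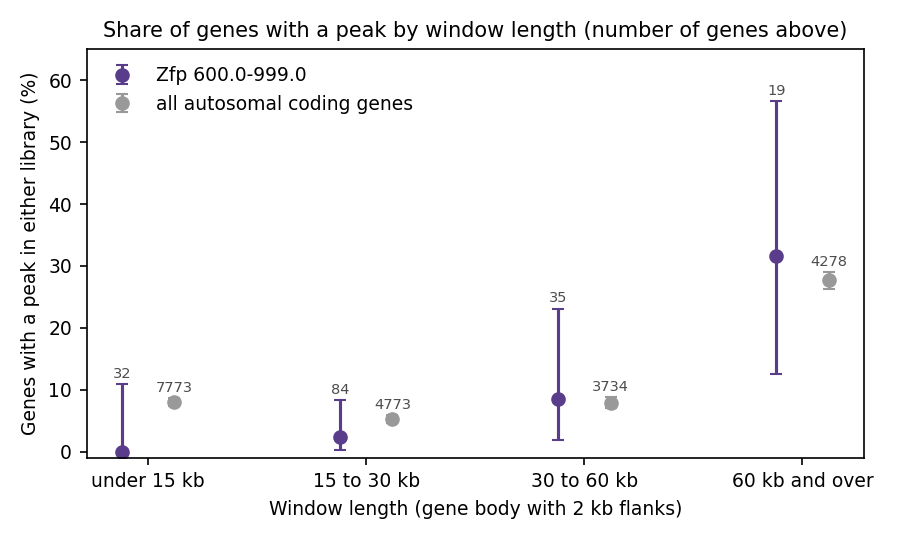
Share of genes with a peak in either library (y axis, percent) by window length (x axis) for the Zfp genes numbered 600 to 999 (purple) and all autosomal coding genes (grey); bars are exact 95% binomial intervals, also for 0 of 32 (up to 10.9%), and the numbers above are genes. The Zfp share runs from 0 of 32 in the shortest class to 6 of 19 (31.6%) in the longest, and every grey point lies within the purple interval of its class.

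Around the genes, peaks were no more distant than around other genes by the medians. The median distance from the gene body to the nearest WT peak was 284 kb, against 358 kb for all coding genes, and to the nearest KO peak 292 kb against 336 kb. A WT peak lay within 50 kb of 29 genes (17.1%, 11.7 to 23.6%), against 20.2% of all coding genes, and a KO peak within 50 kb also of 29, against 20.6%.

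Clustering divided the genes into 119 with another protein-coding Zfp gene within 200 kb, called clustered, and 51 without, called single. A peak in either library was found in 7 clustered genes (5.88%, 2.4 to 11.7%) and in 4 single genes (7.84%, 2.18 to 18.9%), against a background of 11.4%. In WT the clustered genes with a peak were 4 (3.36%) and the single genes 3 (5.88%). In KO they were 5 (4.20%) and 3 (5.88%). The intervals overlap widely, so a difference between clustered and single genes was not detectable with these numbers. The order of the shares turned with the distance, to 6.54% of clustered and 6.35% of single genes at 100 kb and 6.98% and 4.88% at 500 kb, and with 10 kb flanks, to 12.6% and 7.84%. Per Mb of window at 200 kb there were 2.28 peaks in each library for clustered (0.986 to 4.50) and 1.25 for single genes (0.257 to 3.64). The single genes Zfp618 and Zfp654 had peaks in both libraries, Zfp735 in WT and Zfp970 in KO.

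The clustered genes formed 41 chains of Zfp genes with gaps of at most 200 kb, and peaks in their windows came from 3 chains. In 34 chains, with 86 of the genes described, there was no peak of either library anywhere between the first and the last Zfp gene. These included the chromosome 13 chain of 19 Zfp genes with Zfp708, a KRAB zinc finger protein that silences a class of retrotransposons, and the chromosome 7 chain of 15 Zfp genes with Zfp790 and Zfp940. How often spans of such lengths hold no peak elsewhere was not counted, so the number of empty chains is a description only. The median coding gene lay 358 kb from a WT and 336 kb from a KO peak. None of the 36 genes on chromosome 7 had a peak in its window, which allows a share of up to 8.33%. Of the coding genes of that chromosome, of all lengths, 10.1% had one in either library. Most of the 36 windows were shorter than 30 kb. Over all autosomes 8.03% of coding genes with windows under 15 kb had a peak, and 5.20% at 15 to 30 kb. Both shares lie below the limit, and 33 of the 36 genes are clustered, so a depletion on chromosome 7 was not detectable. On chromosome 4, by contrast, 6 of 17 genes had a peak, with 9.30% of coding genes there.

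A single chain on distal chromosome 4 held most of the peaks. It ran over 1.4 Mb (chr4:146449030-147849126) with 12 Zfp genes, of which 11 are numbered 600 to 999. This chain is known as a cluster that expanded in the mouse lineage. Of its 11 genes, 5 held peaks, namely Zfp993, Zfp978, Zfp982, Zfp985 and Zfp984, with 8 of the 11 WT and 6 of the 11 KO peaks described. The whole span, stretches between genes included, held 16 WT peaks (11.4 per Mb) and 14 KO peaks (10 per Mb). All autosomal coding windows held 8.71 WT and 8.90 KO peaks per Mb, so the density of the chain was of the same order. Zfp992, Zfp981, Zfp991, Zfp988, Zfp979 and Zfp933 had no peak in their windows. Without this chain, 2 of 108 clustered genes had a peak (1.85%), Zfp937 and Zfp820, and the windows of all remaining genes held 3 WT and 5 KO peaks. The genes of the chain are related copies, between which reads can be misplaced, so their counts are uncertain.

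**Figure D3:**
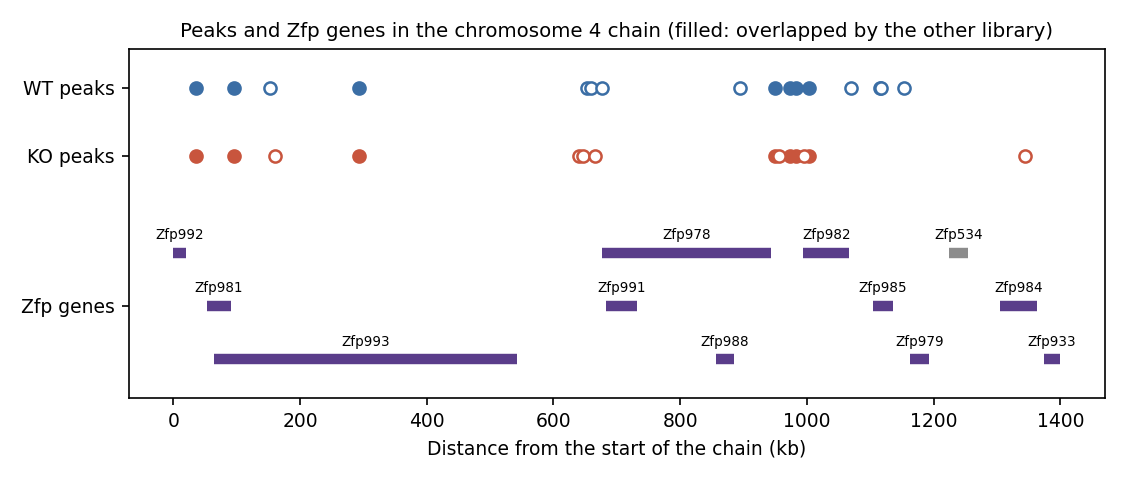
Peaks of WT (blue) and KO (red) and Zfp genes (purple, numbered 600 to 999; grey, Zfp534) in the chromosome 4 chain, by distance from its start in kb (x axis); the 3 gene rows only keep labels apart. Filled points are peaks overlapped by the other library, and they stand at and just before Zfp982, in Zfp993 and between Zfp992 and Zfp981.

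Zfp993 spans 479 kb in the annotation (chr4:146512849-146991471, plus strand) and overlaps the neighbouring gene Zfp981. In WT it held peaks of 3.8-fold, 2.97-fold and 3.2-fold enrichment over local background, the authors' values, with −log10 q of 5.55, 3.26 and 4.62. In KO it held peaks of 4.26-fold, 3.50-fold and 2.93-fold, with −log10 q of 6.09, 3.95 and 2.38. The first peak lay at the same place in both lists (chr4:146545261-146545669 in WT and chr4:146545292-146545577 in KO), 32.4 kb from the gene start, inside the pseudogene Vmn2r-ps16 and the noncoding gene 1700095A21Rik. It was the only peak in any of the 170 windows with a q of 1e-05 or lower, in either list. The last, 229 kb from the start, was shared too, whereas the middle peaks stood 6.69 kb apart and did not overlap.

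Zfp982, a gene known for its expression in mouse embryonic stem cells, held 1 WT peak and 2 KO peaks. The libraries shared a site 9.72 kb into the gene in WT and 9.71 kb in KO, with 2.48-fold enrichment in WT and 3.43-fold in KO. The other KO peak (chr4:147443519-147444973, 1455 bp, 2.71-fold, −log10 q 2.86) began 405 bp after the gene start, over the pseudogenes Gm13161 and Vmn2r-ps19. The nearest WT peak was 7.86 kb away. A further WT peak past the 3′ end lay 2.01 kb from the gene, 11 bp outside the window.

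The remaining genes of the chain with peaks each had them in a single library. Zfp978, 267 kb long, held 2 WT peaks, of 2.33-fold and 2.45-fold, the first of them 110 bp inside its lower-coordinate end (chr4:147124992-147125566). Zfp985 held 2 WT peaks, of 2.73-fold and 2.67-fold, 10.1 and 12.4 kb from its start. Zfp984 held 1 KO peak of 3.32-fold, 17 kb from its start and 1555 bp wide, the widest of the KO peaks described. Their −log10 q ran from 2.24 (Zfp985) to 3.0 (Zfp978), close to the authors' cutoff q of 0.01.

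Outside chromosome 4 the clustered genes with peaks were Zfp937 and Zfp820. Zfp937 on chromosome 2 had a KO peak (chr2:150218324-150219036, 3.25-fold, −log10 q 2.54) that began 247 bp after the gene start, and the nearest WT peak was 136 kb away. Zfp820 on chromosome 17 had a KO peak of 2.91-fold, 9.79 kb from its start, under which the noncoding gene Gm31758 also lies. Its −log10 q was 2.12, and 0.916% of the KO list had a lower value.

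Among the single genes, Zfp654 on chromosome 16 held a site shared by both lists, with a WT peak of 3.51-fold (chr16:64806660-64806951) and a KO peak of 3.59-fold (chr16:64806592-64806860). Zfp618, whose human counterpart is known as a partner of the hydroxymethylcytosine reader UHRF2, held a WT peak of 2.88-fold 44.5 kb from its start and a KO peak of 3.51-fold at 60.8 kb. These 2 peaks were 15.2 kb apart, so the gene counts as marked in both lists without a shared site. Zfp735 on chromosome 11 held a WT peak of 3.52-fold and Zfp970 on chromosome 2 a KO peak of 2.47-fold, each near the middle of the gene (53.0% and 49.3% of its length).

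By site, the 22 peaks fell at 18 places, of which 4 were shared, 7 were in WT only and 7 in KO only. The shared sites were the first and last in Zfp993, the inner site of Zfp982 and that of Zfp654. Thus 4 of 11 WT peaks were overlapped by a KO peak (36.4%, 10.9 to 69.2%) and 4 of 11 KO peaks by a WT peak. Over all autosomal coding windows 45.5% of WT and 44.7% of KO peaks were overlapped, inside those intervals. Clustered genes shared 3 of 13 sites (23.1%, 5.04 to 53.8%) and single genes 1 of 5 (20%, 0.505 to 71.6%), so sharing could not be told apart between them. The peaks were ordinary members of their lists. Median fold was 2.88 in WT, against 2.70 over the autosomal list, and 3.32 in KO, against 3.06. Median pileup was 20.9 in WT, against 25.7, and 17.2 in KO, against 19.4, and no peak exceeded a pileup of 28.7.

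Along the gene, most peaks lay away from both ends, in the part that makes up most of the length. Strand was known for 148 of the 170 genes. Within 1 kb of the gene start, called the promoter here, 0 of 148 genes had a WT peak, which allows a share of up to 2.03%, and 2 had a KO peak, Zfp937 and Zfp982 (1.35%, 0.164 to 4.80%). Of 16457 autosomal coding genes with a strand, 2.61% had a WT and 2.67% a KO peak there. In the last 3 kb of the gene body, where the finger exon would lie, 0 of 148 genes had a peak in WT and 0 in KO, each allowing up to 2.03%, against 1.68% and 1.80% of coding genes. The rest of the gene held all 8 WT peaks and the other 8 KO peaks of these genes, or 2.22 per Mb in each library (0.960 to 4.38), against 8.39 and 8.52 per Mb. Those 2 background values pool genes of all lengths. Whole coding windows held 10.7 WT peaks per Mb at 60 kb and over, but 2.59 at 15 to 30 kb and 2.97 at 30 to 60 kb. The limit at the 3′ end lies above the background share, so a depletion there was not detectable at these numbers. Between the 3′ end and the promoter the counts were 0 and 0 in WT and 0 and 2 in KO, too few to tell them apart. Exon boundaries were not used here, so the last 3 kb stands in for the last exon.

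**Figure D4:**
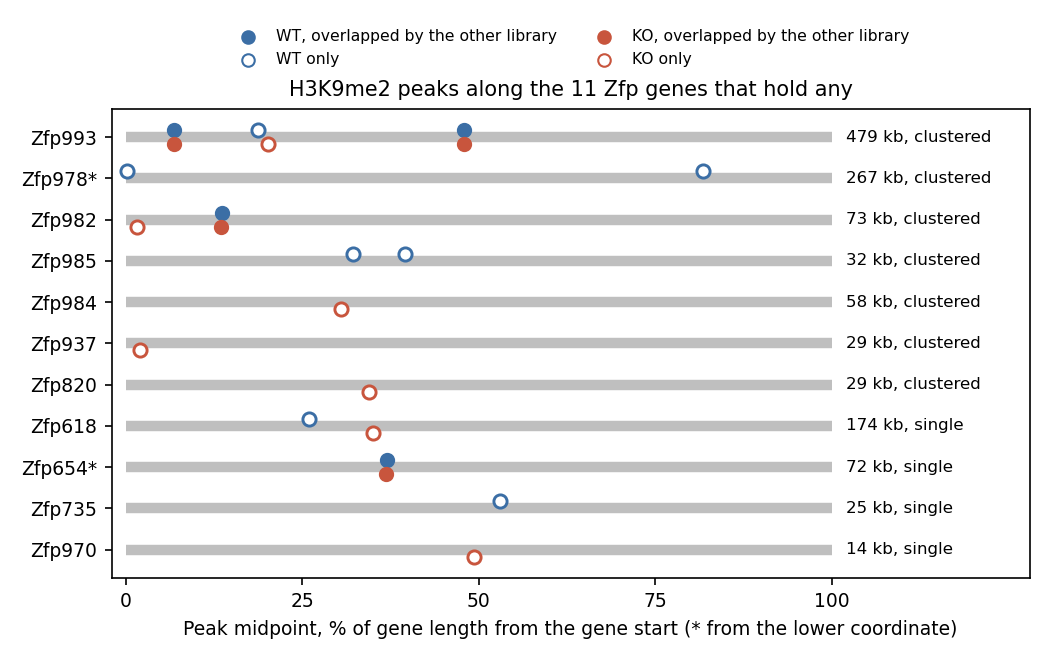
Midpoints of the WT (blue) and KO (red) peaks in the 11 genes with a peak, as percent of gene length from the gene start (x axis; for genes marked with an asterisk, from the lower coordinate); filled points are overlapped by the other library, and gene length and class are given at the right. In genes of known strand every midpoint falls between 1.55% and 53.0% of the gene length, a range not computed for other coding genes.

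In the genes of known strand, all 8 WT and 10 KO peaks had their midpoint between 1.55% and 53.0% of the way from the start to the end. These peaks are few and not independent, since Zfp993 alone held 3 WT and 3 KO peaks and shared sites count in each library. The same positions over all coding genes were not computed, so the range is a description only. The peak closest to a 3′ end was that of Zfp970, which ended 6.98 kb before it. For Zfp978 and Zfp654 no strand was given, and the WT peak at the lower-coordinate end of Zfp978 could lie at either its promoter or its 3′ end.

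The promoters of Zfp937 and Zfp982 are shown because they stand beside the only peaks at a gene start among the genes of known strand. That of Zfp965 is shown as the closest match to the Zfp937 promoter among the zinc finger genes. The sequences are from RefSeq on GRCm38.p6, run from 250 bases before to 50 after a start on the plus strand, and carry CCAAT boxes, on either strand, in capitals. They are Zfp937 at chr2:150217849-150218148, Zfp965 at chr2:175469775-175470074 and Zfp982 at chr4:147442864-147443163.
Zfp937: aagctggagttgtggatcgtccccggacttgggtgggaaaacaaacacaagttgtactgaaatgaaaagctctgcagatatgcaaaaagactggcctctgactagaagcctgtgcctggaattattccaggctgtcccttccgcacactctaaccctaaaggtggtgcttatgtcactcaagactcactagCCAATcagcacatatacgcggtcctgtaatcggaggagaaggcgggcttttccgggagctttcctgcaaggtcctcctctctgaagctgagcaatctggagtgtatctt
Zfp965: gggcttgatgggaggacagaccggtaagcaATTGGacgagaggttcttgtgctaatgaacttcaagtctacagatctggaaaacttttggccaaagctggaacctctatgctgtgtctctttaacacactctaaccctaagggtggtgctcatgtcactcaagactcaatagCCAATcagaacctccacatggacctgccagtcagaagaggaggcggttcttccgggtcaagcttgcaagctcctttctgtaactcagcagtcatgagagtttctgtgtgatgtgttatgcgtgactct
Zfp982: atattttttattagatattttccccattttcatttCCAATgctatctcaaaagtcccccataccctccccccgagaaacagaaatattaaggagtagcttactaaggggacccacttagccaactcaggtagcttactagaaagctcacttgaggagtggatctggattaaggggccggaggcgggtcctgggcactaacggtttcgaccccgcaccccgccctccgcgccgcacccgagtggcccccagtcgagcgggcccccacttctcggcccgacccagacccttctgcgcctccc
The KO peaks begin after the last base shown, so the printed windows themselves held no peak. The Zfp937 promoter had 71.0% identity with that of Zfp965, against a median of 59.7% over 116 promoters compared. Of the 10 most similar, 7 lay on chromosome 2, among them that of Zfp970. The Zfp982 promoter had no such match, with 60.3% at most and a median of 56.7%. It held 16 CpG dinucleotides, an observed to expected ratio of 0.713, and the Zfp937 promoter held 8, a ratio of 0.427.

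A promoter entry at the annotated gene start existed for 117 of the 170 genes. Of these, 77 (65.8%, 56.5 to 74.3%) held CCAAT on either strand, against 40.2% of 13556 coding promoters and 40.9% of 115 promoters of Zfp genes numbered below 600. The run TAGCCAATCAG, the longest with CCAAT that the Zfp937 and Zfp965 promoters share, was chosen after the sequences were read. It was held on either strand by 16 of the 117 (13.7%, 8.02 to 21.3%), a count that includes the 2 promoters it was taken from. Without them it was 14 of 115 (12.2%, 6.82 to 19.6%). Of the 13439 other coding promoters 48 held it (0.357%), and of the 115 of lower-numbered Zfp genes 3 did (2.61%). These shares are a description, since the run was chosen from the zinc finger promoters themselves. The Zfp982 promoter does not hold it. Related copies can share promoter sequence by descent, so these promoters are not independent. Of the 8 promoters of genes with a peak, 5 held CCAAT (62.5%, 24.5 to 91.5%), close to the share over all 117. A match of letters is a description and not a binding site.

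The 7 zinc finger genes of the set listed for their known roles had no peak in their windows. With 0 of 7 a share of up to 42.9% is allowed, against the background of 11.4% for either library, so this list is too short to read. Zfp809, which binds the primer binding site of murine leukaemia proviruses, had its nearest WT peak 910.3 kb away and its nearest KO peak 649 kb away, and its neighbours Zfp653, Zfp872 and Zfp810 had none either. The other retrotransposon silencers were Zfp708, with the nearest peaks at 1765 and 1668 kb, and Zfp932, at 62.0 and 62.1 kb. Zfp638, which brings the HUSH complex to unintegrated retroviral DNA, had them at 203 and 249 kb. Zfp644, a partner of EHMT1 and EHMT2, had them at 248 and 222 kb. Zfp703, a corepressor gene, and Zfp750, a regulator of epidermal differentiation, had them at 335 and 336 kb and at 375 kb in both libraries. The genes of the machinery that KRAB zinc finger proteins recruit and of H3K9 dimethylation, among them Trim28, Setdb1 and Ehmt2, had 0 peaks in 24 of 24 windows. The background for a peak in either library is 11.4%, and 0 of 24 allows a share of up to 12.5%.

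Among the lower-numbered Zfp genes, peaks gathered in a few long genes. Of 190 Zfp genes numbered below 600, 4 had a WT peak (2.11%, 0.577 to 5.30%) and 3 a KO peak (1.58%, 0.327 to 4.54%), with 27 and 20 peaks. The intervals overlap those of the genes from 600 to 999. These were almost all in 3 long single genes, the developmental regulators Zfp536 (16 WT and 12 KO peaks), Zfp521 (7 and 4) and Zfp462 (3 and 4). None of the 107 clustered Zfp genes numbered below 600 had a peak in either library, which allows a share of up to 2.80%, against 7 of 119 (5.88%, 2.4 to 11.7%) of the clustered genes from 600 to 999. The limit lies inside the interval of the latter, and without the chromosome 4 chain their share was 1.85%.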

How the data were processed

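CUT&Tag for H3K9me2 gave 1 WT and 1 KO peak list, and the labels' genotype set the groups. Tools listed by the submitters' processing notes, with no roles, are deepTools, HOMER, MACS2, Picard, SAMtools 1.11, Bowtie2 2.4.2 and Trim Galore 0.6.6, with the build mm10. Each library's broad peaks were called by the authors, per the file headers, with MACS2 2.2.7.1, with q and broad cutoffs of 0.01, all duplicates kept and no control library, so narrow towers of reads can stay in the lists. Per the file headers, the deposited pileup is a coverage signal of tags extended to 292 bp (WT) or 189 bp (KO) and is not scaled between libraries. The deposited fold enrichment is a ratio to the local background of the same library, and p-values and q-values are deposited as −log10. The peak width in bp, deposited as another column, cannot fall below that fragment length.

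Gene positions came from RefSeq on GRCm38.p6, the assembly behind mm10, without 348 genes of scaffolds, and strand from the RefSeq promoter table, which held 148 of the 170 genes. Overlap needed 1 bp. The clustered label used protein-coding genes with symbols Zfp and a number, so related genes under other names do not count. The last 3 kb of the gene replaced the last exon named in the design. Named genes were all with a peak in either library, plus members with known roles. The design also named Zfp804a (12 WT and 8 KO peaks), whose symbol ends in a letter and is not in the set, and Fam208a, which did not match. The set, lists and comparisons were chosen with earlier results of these data known. Promoters were aligned globally with Biopython 1.88, and intervals came from SciPy 1.17.1 in Python 3.11.15. The overlap and interval functions were tested on simulated data. The alternatives tried are described in the closing section. One B cell marker of the design is not reported here.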

Additional observations from a re-analysis of the deposited data

How the results depend on the processing

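No paired analysis was possible because each genotype had 1 library. Of 94 recomputed values of 14 results, 70 stayed within 1.5 times the count or within the interval of the share, and 24 moved. Values stayed with the gene body alone, with KO peaks widened by 103 bp, without peaks of a pileup of 100 or more, with 25% of a peak inside the window, with other sizes of end window, with another definition of clustering and with stricter or looser overlap. With another distance of clustering each share stayed within its interval, but the order of clustered and single genes turned (6.54% and 6.35% at 100 kb, 6.98% and 4.88% at 500 kb). At a q of 1e-05 or lower, Zfp993 alone kept peaks: WT, KO and both held 1 gene each, WT only and KO only 0, with 1 WT peak, 1 KO peak and 1 shared site. Clustered genes then stood at 0.840% and single genes at 0%, promoters held 0 peaks, and 100% of WT and of KO peaks were overlapped. All coding genes stood at 3.88% there, against 0.588% (0.0149 to 3.23%) of the zinc finger genes. With 10 kb flanks 16 genes held a WT peak, 13 a KO peak, 10 both and 6 WT only. The windows then held 19 WT peaks and 7 shared sites, 12.6% of clustered genes had a peak, and the zinc finger share in either library of 11.2% (6.86 to 16.9%) stood against 15% of coding genes, which lies inside the interval. Chosen after the data were seen, leaving out the chromosome 4 chain gave 3 WT peaks, 5 KO peaks and 1.85% of clustered genes, and leaving out the 2 genes with a window over 200 kb, Zfp993 and Zfp978, gave 6 WT peaks. With 11 peaks per library, shares of peaks within these genes carry wide intervals (10.9 to 69.2% for overlap), and depth and threshold limit what a missing peak can show.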

Other observations

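Several genes of the set had peaks just beyond the window of 2 kb. Zfp976 on chromosome 7 had a site shared by both libraries on its 5′ side, 3.70 kb away in WT (2.80-fold) and 3.91 kb in KO (3.61-fold), and it was the only chromosome 7 gene of the set with a peak within 10 kb. Zfp992 had a shared site 3.96 kb away in WT and 3.92 kb in KO. Zfp980 had a WT peak 5.96 kb and a KO peak 4.06 kb past its 3′ end, which did not overlap. Zfp995 on chromosome 17 had a WT peak 6.04 kb past its 3′ end. The chromosome 7 chain of Zfp551 and Zfp606 held 3 WT and 3 KO peaks over 0.0837 Mb, none of them in the window of Zfp606.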
